A study of Mus musculus with 2 samples.

Results

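The Ugt2 and Sult1 gene cluster of mouse chromosome 5 was described here by its accessible chromatin, over 1.5 Mb from position 87000000 of the mm9 assembly. The members are all ATAC-seq peaks in this window, 16 of the 90445 peaks called in control enteroids and 29 of the 71282 peaks called in Taf4-inactivated enteroids. The window was chosen by the measured values themselves, because several strong peaks in it were called only in the Taf4-inactivated library, so the counts of such peaks below describe the choice and carry no test. The window holds 28 protein-coding genes, of which 9 are Ugt2 and 3 are Sult1 genes.

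ATAC-seq marks open chromatin through a transposase that inserts sequencing adapters into accessible DNA. Enteroids, which are epithelial cultures, were grown from ileal crypts of 4-month-old C57Bl6/129sv mice. Control enteroids were Taf4 lox/lox (labelled WT) and Taf4-inactivated enteroids were Taf4 lox/lox::VilCreERT2 (labelled KO), and both received 1 µM 4-hydroxytamoxifen (4-OHT) for 3 days. The villin promoter restricts this Cre to the gut epithelium, and since control enteroids carried no Cre, its presence and the loss of Taf4, a subunit of the transcription factor TFIID, cannot be told apart. With 1 library per genotype there was no replicate and no test between genotypes, and the shares carry exact (Clopper-Pearson) 95% intervals that cover counting error only.

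Ugt2 genes encode UDP-glucuronosyltransferases, membrane enzymes of the endoplasmic reticulum that attach glucuronic acid to steroids, bile acids and drugs. Sult1 genes encode cytosolic sulfotransferases that attach sulfate to phenols, catecholamines, thyroid hormones and estrogens. Both reactions make lipophilic molecules soluble for excretion, and the epithelium of the small intestine carries them out on dietary compounds before they reach the liver.

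Peaks were numbered along the chromosome, C1 to C16 in control and T1 to T29 in Taf4-inactivated enteroids. A peak was said to have a partner if it shared 1 bp or more with any peak of the second list, and it was strong when its fold enrichment over the background of its own library was in the top 10% of its list, which meant at least 2.57 in control and 3.69 in Taf4-inactivated enteroids. Fold values of the libraries have different scales, so peaks were compared by their percentile of fold within the list. The following sequences are the central 300 bases, or the whole of shorter peaks, of the strong Taf4-inactivated peaks without a partner, T6, T16 and T20. They are the plus strand of mm9, with matches to recognition sequences in capitals. On both strands the search was for TGANTCA, bound by AP-1 factors, for AGATAA, the letters read by factors of the GATA family, for CAAAGTCCA of the receptor HNF4, for TTTATNG of the CDX factors, for TTAATNATT of the factor HNF1 and for the CTCF consensus.
T6, upstream of Ugt2b34, chr5:87339774-87340073: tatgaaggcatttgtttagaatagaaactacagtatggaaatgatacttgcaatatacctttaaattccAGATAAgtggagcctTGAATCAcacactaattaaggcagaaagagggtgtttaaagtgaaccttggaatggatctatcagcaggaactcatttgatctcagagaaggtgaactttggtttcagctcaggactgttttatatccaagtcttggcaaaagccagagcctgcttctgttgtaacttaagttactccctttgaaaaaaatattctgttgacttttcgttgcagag
T16, between Ugt2a3 and Ugt2b38, chr5:87809074-87809373: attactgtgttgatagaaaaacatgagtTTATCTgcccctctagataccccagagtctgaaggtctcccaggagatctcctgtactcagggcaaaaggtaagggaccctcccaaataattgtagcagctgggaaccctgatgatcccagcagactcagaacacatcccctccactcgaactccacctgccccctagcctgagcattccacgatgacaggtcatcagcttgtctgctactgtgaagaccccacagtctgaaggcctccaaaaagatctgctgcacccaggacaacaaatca
T20, intron of Sult1b1, chr5:87961402-87961697: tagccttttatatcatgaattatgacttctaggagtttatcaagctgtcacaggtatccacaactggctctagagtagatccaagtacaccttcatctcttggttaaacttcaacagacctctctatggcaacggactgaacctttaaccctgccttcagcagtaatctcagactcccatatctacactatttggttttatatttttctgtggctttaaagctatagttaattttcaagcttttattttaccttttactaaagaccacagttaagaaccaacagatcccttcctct

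The fourth such peak, T21, lay over a start site of Sult1b1. Its part upstream of the annotated exon had no match, and a stretch of 30 bases inside the exon held an HNF4 and an AP-1 sequence.
T21, upstream of the Sult1b1 exon, chr5:87965248-87965363: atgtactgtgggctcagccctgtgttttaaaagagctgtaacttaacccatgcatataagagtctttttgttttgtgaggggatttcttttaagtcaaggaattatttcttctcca
T21, in the Sult1b1 exon, chr5:87965212-87965241: aaTGGACTTTGgcctgctcacTGACTCAtg

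Of the Ugt2 genes, Ugt2b36 had start site peaks in control and Taf4-inactivated enteroids and Ugt2a3 in the latter alone. The Ugt2b36 sequence is shown because T16, printed above, resembles it, and that of Ugt2a3 because it holds a GATA sequence close to the start site.
T10, start site of Ugt2b36, chr5:87521652-87521951: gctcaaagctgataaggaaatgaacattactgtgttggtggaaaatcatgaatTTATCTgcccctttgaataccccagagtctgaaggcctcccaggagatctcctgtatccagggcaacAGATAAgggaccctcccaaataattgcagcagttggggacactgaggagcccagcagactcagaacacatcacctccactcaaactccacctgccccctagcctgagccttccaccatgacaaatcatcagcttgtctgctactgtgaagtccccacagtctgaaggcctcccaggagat
T14, upstream of the Ugt2a3 exon, chr5:87766221-87766304: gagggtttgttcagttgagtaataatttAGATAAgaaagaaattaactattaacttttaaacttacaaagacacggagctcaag

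The control library was the deeper one. The background level solved from fold and p was 12.1 reads in control and 7.35 in Taf4-inactivated enteroids, a depth ratio of 1.65. Of 13 fixed cell type markers, 8 had start site peaks in each library, among them Vil1 of the enterocyte and Lgr5 of the stem cell. Over all protein-coding genes 62.7% had such peaks in both lists, so nothing about cell type is read from this count. Fabp1 had one in Taf4-inactivated enteroids alone, and Sis in neither list. Among the markers of other tissues, Ptprc of leukocytes and Alb of hepatocytes had no peak, Pecam1 of endothelium had one in control alone and Col1a1 of fibroblasts had one in both. The targeted gene, annotated as Taf4a, was open at its start in both libraries (percentiles 74.7 and 58.7), a place that says nothing of the floxed exons.

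In control enteroids the cluster was poor in peaks. There were 1.07 control peaks per 100 kb in the window against 3.33 over the genome, and 1.93 Taf4-inactivated peaks per 100 kb against 2.62. The covered length was 7.81 kb in control and 15.1 kb in Taf4-inactivated enteroids. The control list was the shorter one in the window and the longer one over the genome. The window was chosen for peaks called only in the Taf4-inactivated library, and the part of depth in these counts was not tested. Of the 16 control peaks, 4 had no partner (25%, CI 7.27 to 52.4), against 52.7% of all control peaks. Of the 29 Taf4-inactivated peaks, 17 had no partner (58.6%, CI 38.9 to 76.5), against 39.8% of that whole list.

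Among strong peaks, 0 of 3 in control and 4 of 6 in Taf4-inactivated enteroids had no partner, where the whole lists gave 2.38% and 5.65%. The window had been chosen for strong peaks of this kind, and nothing is read from their number. Peaks below the top 10%, some of which may also have prompted the choice, were without a partner in 4 of 13 cases in control (30.8%, CI 9.09 to 61.4) and in 13 of 23 cases in Taf4-inactivated enteroids (56.5%, CI 34.5 to 76.8). The same share was 58.3% and 43.5% over the whole lists. Both intervals of the window are wide, and they overlap each other. Of the 4 strong peaks, T16 alone was in the top 10% by −log10 p. Just outside the limit for strong was T19, 24239 bp from a start site of Ugt2a1, at percentile 87.95, and just inside was T20 at 90.2. At the edges of the window, the nearest control peak before it (86999408 to 86999644) was at percentile 81.7 and had no partner, and the nearest after it was a shared peak (88721867 to 88722067 in control, percentile 72.2). The nearest Taf4-inactivated peaks outside were at percentiles 22.6 (86894946 to 86895509, no partner) and 56.4 (88721729 to 88722087).

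**Figure D1:**
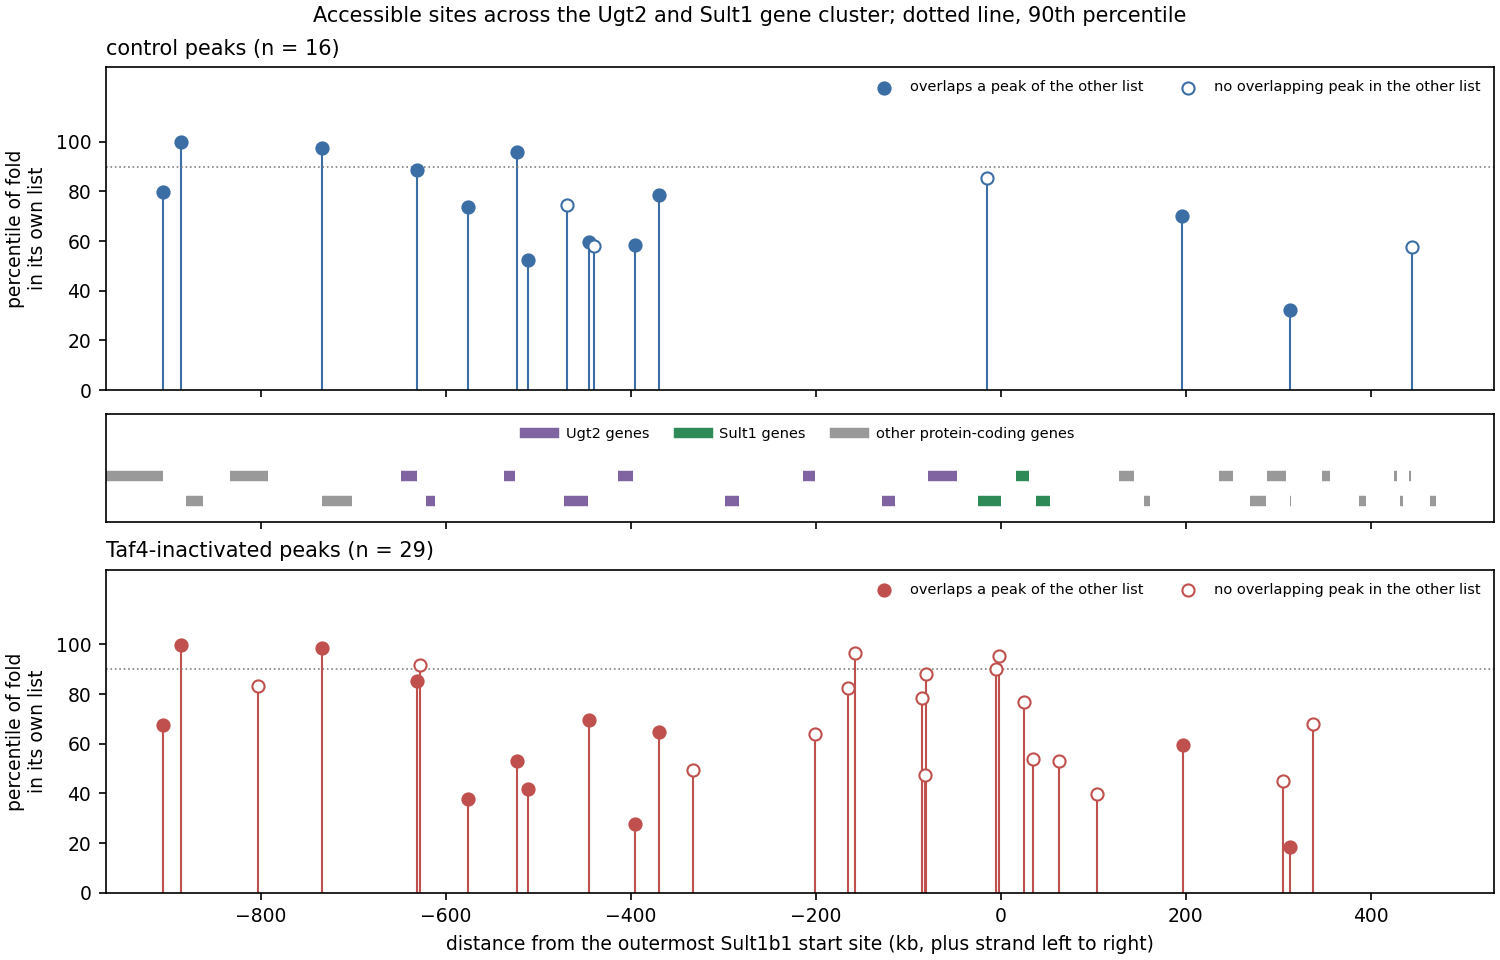
Percentile of fold of every peak within its own list (vertical axis) along the window (horizontal axis, kb from the outermost Sult1b1 start site), for control (top) and Taf4-inactivated enteroids (bottom), with the protein-coding genes between them. Open circles have no overlapping peak in the other list; from the last Ugt2b5 pair to the pair beside the casein genes there are 13 open circles in Taf4-inactivated and 1 in control enteroids.

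The longest stretch between shared peaks ran from 87598406 to 88162701, over 564 kb and 9 protein-coding genes, and it contained Ugt2b37, Ugt2a3, Ugt2b38, Ugt2a1 and the 3 Sult1 genes. Inside it the control library had 1 peak of 262 bp, and the Taf4-inactivated library had 13 peaks covering 7.71 kb. That none of these has a partner follows from how the stretch was defined, and it holds 3 of the 4 strong peaks for which the window was chosen. By the same definition all shared peaks lie outside this stretch, so no contrast with its surroundings is read. On the side of Ugt2b34 to Ugt2b5 most peaks were shared. The flanking Tmprss11 and Ythdc1 stretch had 3 control and 4 Taf4-inactivated peaks, of which 0 and 1 had no partner.

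The 127 kb that hold the Sult1 genes lie inside this longest stretch, so that no peak there has a partner follows from the same definition. There was 1 control peak and there were 5 Taf4-inactivated peaks. Of the latter, 2 (T20 and T21) are strong peaks for which the window was chosen. Over the whole lists 52.7% of control and 39.8% of Taf4-inactivated peaks had no partner, and nothing is read from the counts here. Sult1b1 (ENSMUSG00000029269.5, 87942364 to 87967220, minus strand) encodes a sulfotransferase of phenols and thyroid hormones. It had 3 annotated start sites, at 87964171, 87965247 and 87967220. In Taf4-inactivated enteroids peak T21 (87965087 to 87965363, 277 bp, fold 4.19, −log10 q 10.7) covered the middle one and stood at percentile 95.3 of its list. The outermost start site was 1857 bp away from it. The 30-base stretch printed above, at 87965212 to 87965241, lay in the untranslated first exon of that transcript, with the AP-1 sequence 8 bp and the HNF4 sequence 25 bp downstream of the start site. In control enteroids the nearest peak to any Sult1b1 start site was 11560 bp away.

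A further strong peak, T20 (87961402 to 87961697, 296 bp, fold 3.70, −log10 q 8.09), lay in a Sult1b1 intron, 2474 bp from a start site, at percentile 90.2. The one control peak, C13 (87952350 to 87952611, 262 bp, fold 2.41, −log10 q 3.42), lay in another intron of Sult1b1 at percentile 85.3 of the control list. C13 had 344 copies in the reference (at least 80% identity over at least 50% of the peak), and 90.1% of its 40-base words occurred at 1 place. Sult1b1 thus had peaks in both libraries, the control one in repeated sequence and at another place.

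Sult1d1 (ENSMUSG00000029273.9, 87983670 to 87998052, minus strand), a sulfotransferase of catecholamines, had no peak within 1 kb of a start site in either list. In Taf4-inactivated enteroids, T22 (87991443 to 87992522, 1080 bp, fold 3.02) lay in its intron, 2227 bp upstream of its innermost start site, at percentile 76.7. T23 (88001971 to 88002823, 853 bp, fold 2.50) lay 3919 bp upstream of the gene at percentile 54.0. In control enteroids the nearest peak to the outermost Sult1d1 start site, C13, was 45441 bp away. Sult1e1, the estrogen sulfotransferase, had no start site peak either, and its nearest Taf4-inactivated peak, T24 (88030178 to 88030442, fold 2.49), lay 9542 bp upstream at percentile 53.1. Along the 3 genes the percentiles thus went from 95.3 at Sult1b1 to 53.1 beyond Sult1e1.

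**Figure D2:**
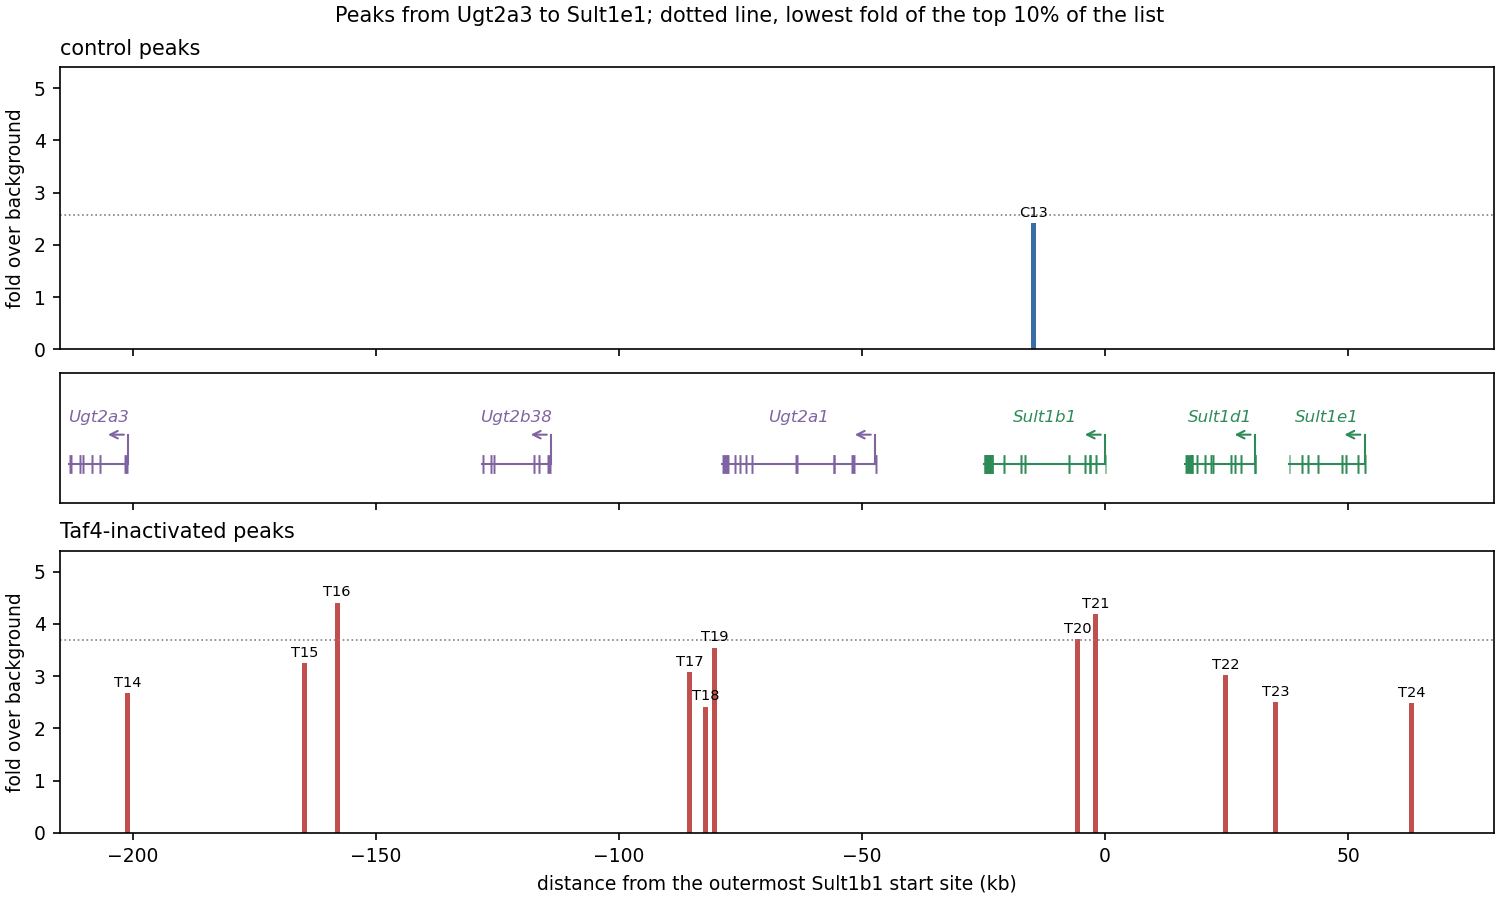
Fold over the background of the same library (vertical axes) of every peak from Ugt2a3 to Sult1e1 (horizontal axis, kb from the outermost Sult1b1 start site), in control (top) and Taf4-inactivated enteroids (bottom). Bars are drawn 1 kb wide or as wide as the peak, the dotted line is the lowest fold of a strong peak in that list, and arrows mark the outermost start sites. Control enteroids have the single peak C13 and Taf4-inactivated enteroids have 11 peaks, T14 to T24, none at the place of C13.

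The 12 genes of both families were then compared at their start sites. In both lists 2 of the 12 had a peak within 1 kb, in Taf4-inactivated enteroids alone another 2 did, in control alone 0 did, and 8 had none. Over all 22380 protein-coding genes these shares were 62.7% in both lists, 2.9% in Taf4-inactivated and 5.7% in control enteroids alone. Most genes of the cluster were thus without a start site peak in either library. With the outermost start site of each gene alone, Sult1b1 dropped out.

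Ugt2b34 had the highest shared start site peak of the families, C4 and T5, with a fold of 2.51 at percentile 88.4 in control and 3.40 at percentile 85.4 in Taf4-inactivated enteroids. In Taf4-inactivated enteroids the strong peak T6 (87339754 to 87340095, fold 3.82, −log10 q 8.50) was added 3792 bp upstream of it, at percentile 91.7. Its printed sequence holds a GATA and an AP-1 sequence. No control peak lay between that of the start site and C5, which is 35374 bp from Ugt2b1.

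Ugt2b36 had the start site peaks C9 and T10. C9 (87521673 to 87522028) stood at percentile 59.7 and ended 93 bp short of the start site, whereas T10 (87521492 to 87522112) covered all of C9 and the start site itself and stood at percentile 69.4. At Ugt2a3, an enzyme of gut and liver, T14 (87765996 to 87766315, fold 2.67) covered the start site at percentile 64.1, with a GATA sequence 29 bp upstream of the start. The nearest control peak was 167815 bp away. Ugt2b1, Ugt2b35, Ugt2b5, Ugt2b37, Ugt2b38 and Ugt2a1, the last known from the olfactory epithelium, had no start site peak in either list. Of these, Ugt2b5 came closest, with the shared pair C11 and T11, 2633 bp and 2710 bp from its start.

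The highest peak of the window without a partner was T16 (87808779 to 87809670, 892 bp, fold 4.41, −log10 q 11.7), at percentile 96.7. It was intergenic, 42559 bp upstream of Ugt2a3. The same search for copies found 1 copy of T16, and this was the start of Ugt2b36. Over 891 aligned bases T16 was 87.2% identical to 87521385 to 87522248, which contains C9 and T10. The neighbouring T15 (87802303 to 87802782, fold 3.24, percentile 82.3) was in the same way a copy of Ugt2b36 sequence, with 92.5% identity to 87515367 to 87515842, 5738 bp inside the gene, where neither library had a peak. Of the 2 copies of this stretch, the one at the Ugt2b36 gene thus had its start site peak in both lists and the one between Ugt2a3 and Ugt2b38 had peaks in the Taf4-inactivated list alone. Of the 40-base words of T16, 97.9% occur at 1 place in the reference.

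Further upstream, between Ugt2b38 and Ugt2a1, there was a group of 3 Taf4-inactivated peaks within 6 kb, T17 (87881524 to 87882078, percentile 78.3), T18 (87884659 to 87885544, 47.5) and T19 (87886750 to 87887044, 87.95). T18 and T19 each had 2 copies in the window, upstream of Ugt2a3 (86.3% and 88.3% identical) and upstream of Ugt2b37 (88.9% and 87.3%), and no peak of either list lay on those copies. T17 had 191 copies in the reference, and T24, upstream of Sult1e1, had 152. In contrast, T6, T14, T20, T21, T22 and T23 had no copy by this measure. By this measure the strong peaks of Sult1b1 are in single-copy sequence and T16 is in duplicated sequence.

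The 12 pairs of peaks that overlapped each other best were mostly of lower rank in Taf4-inactivated enteroids. The percentile was higher in Taf4-inactivated enteroids in 2 pairs and lower in 10, with a median difference, inactivated minus control, of −11.5 points. Over all 42491 pairs, 40.2% were higher in Taf4-inactivated enteroids and the median difference was −2.98 points. The pair with the largest fall was C6 and T8, 14586 bp from Ugt2b35, from percentile 95.8 to 53.2 (−42.6 points). It was followed by C5 and T7 near Ugt2b1, from 73.9 to 37.9 (−36.0), and C11 and T11 near Ugt2b5, from 58.3 to 27.8 (−30.4). In the reference, C6 and T8 had 92 copies each, C5 and T7 1 each, C11 12 and T11 148. The pairs with a higher percentile were the start sites of Ugt2b36 (9.70 points) and of Ythdc1 (1.20 points), which encodes a reader of methylated adenosine in RNA. The smallest fall was that of C2 and T2 (−0.25). Ranks fell over all pairs too, by less at the median, and the lists differ in length. Where the named falls stand among those of all pairs was not tested. Nothing particular to the named genes is read from them.

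**Figure D3:**
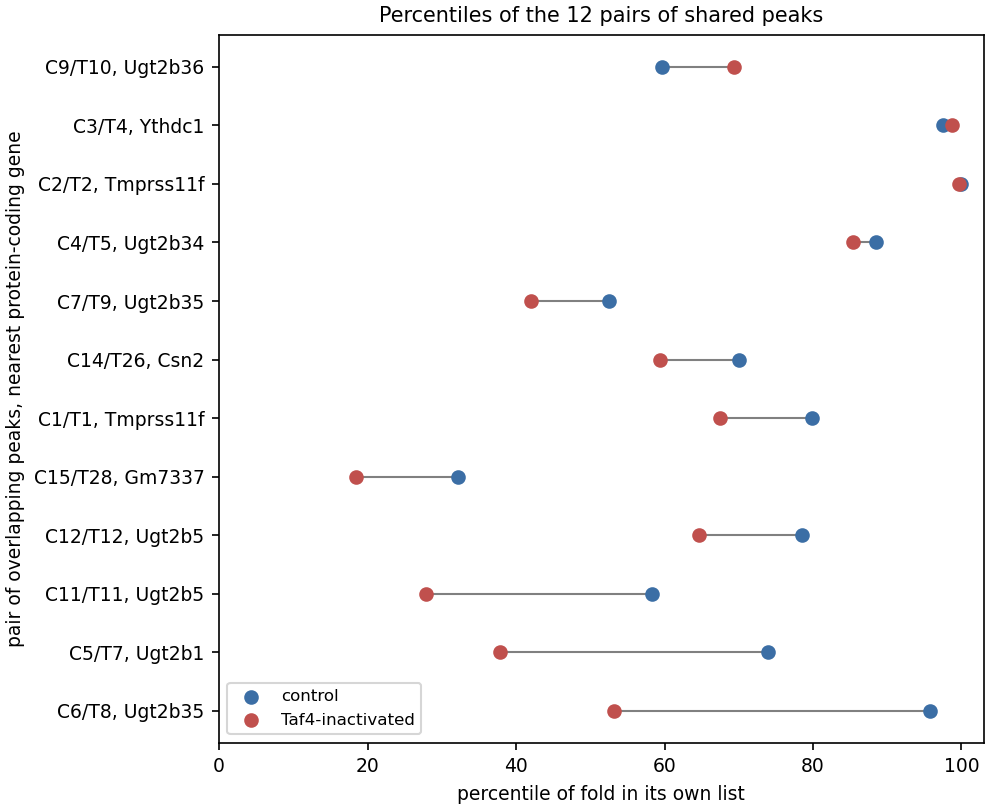
Percentile of fold within the control list (blue) and the Taf4-inactivated list (red) for the 12 pairs of overlapping peaks, ordered by their difference, with the nearest protein-coding gene on the vertical axis. Red lies to the left of blue in 10 pairs, farthest for C6 and T8 beside Ugt2b35, and to the right for Ugt2b36 and Ythdc1.

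The 5 highest peaks of the window by fold were C2, C3, C6, C4 and C13 in control and T2, T4, T16, T21 and T6 in Taf4-inactivated enteroids. The highest in both was C2 and T2 (87081213 to 87081669 and 87081207 to 87081675), at percentiles 99.9 and 99.7. Of its 40-base words only 24.7% and 25.8% occurred at 1 place, and it had 52006 and 52320 copies in the reference, which makes it dispersed repetitive sequence. The next was the start site of Ythdc1, C3 and T4, at percentiles 97.6 and 98.8. The remaining shared start site peaks were those of Tmprss11f (79.9 and 67.5), a serine protease gene, of the small nucleolar RNA SNORA17 (70.0 and 59.4) and of Gm7337 (32.2 and 18.5).

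The position and base composition of the unpartnered peaks are given as a description. Of the 17 Taf4-inactivated ones, 11 were intergenic, 3 intronic, 1 exonic and 2 at start sites, with a median GC content of 43.1% (36.3% to 60.4%). The 12 with a partner comprised 6 at start sites and 6 intergenic ones, with a median GC content of 47.2%. The 4 control peaks without a partner were 2 intronic and 2 intergenic ones, with a median GC content of 57.2% (40.8% to 58.5%), and these ranges overlap. Values for GC content are of the whole peaks, and the window as a whole had 37.5%. Among the control peaks, C10 (87527443 to 87527746), 5863 bp from Ugt2b36, had 17.8% of its 40-base words at 1 place.

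A GATA sequence was in the central 300 bases of 6 of the 17 Taf4-inactivated peaks without a partner (35.3%), namely T6, T14, T15, T16, T18 and T23. It was in 1 of the 12 with a partner, T10, and in 1 of the 16 control peaks, C9, both at the Ugt2b36 start site. Over the whole Taf4-inactivated list the share was 12.8%, among its peaks without a partner 16.0%, and among its strong ones without a partner 29.8%. T16 shares duplicated sequence with T10 and C9, and these are not independent. T15 lies beside T16, and its own copy inside Ugt2b36 held no peak. AP-1 sequences were in T6 and T21, 2 of 17, where the whole list had 12.1%, and the HNF4 sequence was in the central 300 bases of T21 alone, where the whole list had 1.46%. T6 and T21 are strong peaks without a partner, and among all such peaks of that list the shares were 33.0% for AP-1 and 6.45% for HNF4. CDX sequences were in 5 of the 29 Taf4-inactivated peaks (17.2%, against 10.3% of that list) and in 3 of the 16 control peaks (18.8%, against 8.67%). These were the pairs C1 and T1, C6 and T8 and C11 and T11, and the unpartnered T13 and T19. Outside the central 300 bases of the unpartnered peaks, T17 held an HNF4 sequence, T15 a GATA sequence, T16 an AP-1, a CDX and 4 GATA sequences, and T18 an AP-1, an HNF1 and 2 GATA sequences. In the intron of Sult1d1, T22 held 3 GATA and 2 AP-1 sequences in its outer part, of which 1 pair overlaps by 1 base, and none in its central 300 bases. CTCF and HNF1 sequences were in 0 of the 29 central windows. A match is a description of the letters and not of binding.

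The authors kept reads that map to 1 place, so reads from sequence identical between gene copies were dropped in both libraries. Over the window 82.8% of 40-base words were found at 1 place in the reference, over the Ugt2 stretch 77.7% and over the Sult1 stretch 87.9%. Within 1 kb of the outermost start site the lowest values were those of Ugt2b38 (48.1%), Ugt2b5 (66.8%) and Sult1b1 (73.5%), and for Sult1d1, Sult1e1 and Ugt2a1 the value was 100%. T20, T21, T22 and T23 consisted of unique 40-base words throughout.

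**Figure D4:**
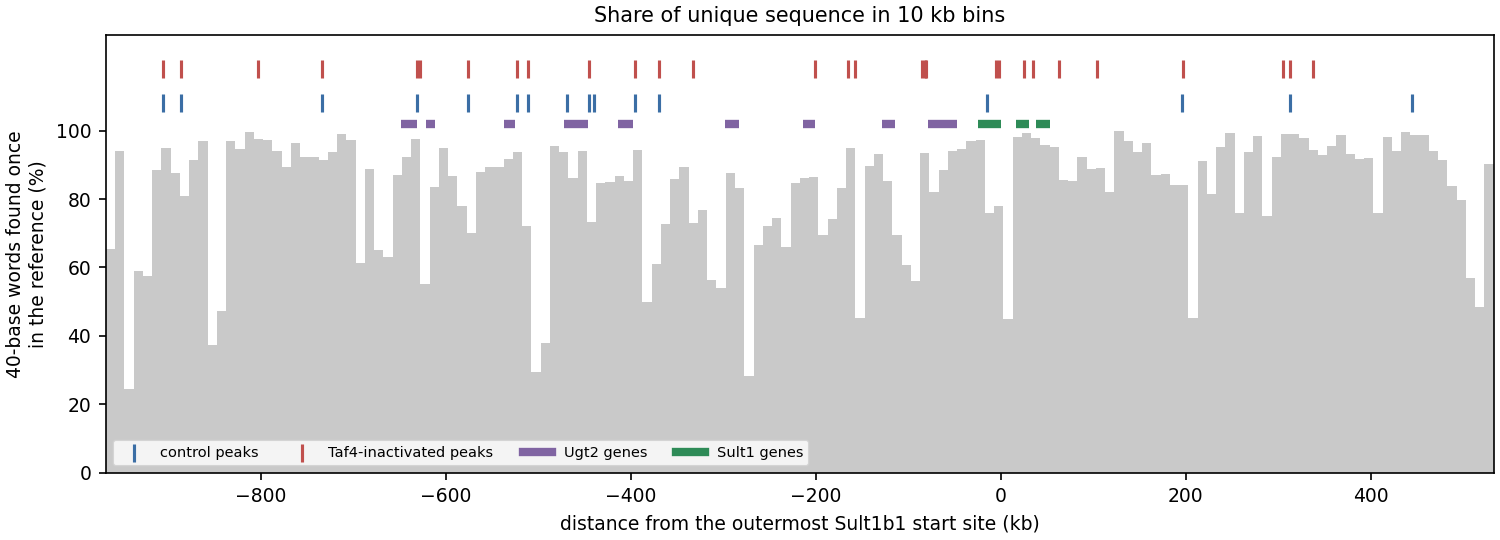
Share of 40-base words that occur at 1 place in the reference, in 10 kb bins along the window (vertical axis, percent; horizontal axis, kb from the outermost Sult1b1 start site), with the Ugt2 and Sult1 genes and the peaks of both lists above. The lowest bin has 24.6%, and the Sult1 stretch averages 87.9%.

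Other genes of glucuronidation and sulfation were compared from a fixed list, of which 36 of 38 were matched in the annotation. A start site peak was present in both lists for 16, in control alone for 3 (Ugt1a2, Sult2a4 and Sult5a1), in Taf4-inactivated enteroids alone for 1 (Ugt1a6b) and in neither for 16. Over all protein-coding genes the shares were 62.7% in both lists, 5.7% in control alone and 2.9% in Taf4-inactivated enteroids alone. Among genes of cofactor supply, Papss1, which makes the sulfate donor PAPS, was at percentiles 99.6 and 99.0, and Ugp2, which makes UDP-glucose, at 98.5 and 95.4. Slc35b1 was at 55.9 and 81.3, and Papss2, the paralogue of Papss1, had no start site peak in either list. Of the 16 genes with a peak in both lists, most were at a lower percentile in Taf4-inactivated enteroids. Among these were Ugt8a (89.4 and 73.2), Bpnt1 (78.5 and 65.7) and Slc35d1 (98.1 and 86.4). Only Ugt1a6a, Sult2b1, Sult4a1, Slc35b1 and Gusb were higher. Over all 42491 pairs of overlapping peaks 40.2% were higher, so nothing particular to conjugation genes is read from these falls. The sterol sulfotransferase gene Sult2b1 was at 88.6 in control and 95.8 in Taf4-inactivated enteroids, and Gusb, the lysosomal β-glucuronidase that cleaves glucuronides, at 38.1 and 84.1. On a separate fixed list, all 17 regulators had start site peaks in each library, against 62.7% of all protein-coding genes. Among them the nuclear receptor gene Nr1i3 (CAR) was at percentiles 71.7 and 87.3, Nr1i2 (PXR) at 54.9 and 46.3, Hnf4a at 90.5 and 91.3 and Gata6 at 78.3 and 63.0.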

How the data were processed

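ATAC-seq peak lists were analysed for 1 control and 1 Taf4-inactivated enteroid library, grouped by the genotype in the labels. The authors mapped reads to mm9 with Bowtie 1.0.0, keeping reads with 1 place, and ran MACS2 2.1.1 in broad mode on each library by itself (no model, shift −100, extension 200 bp); base calls came from bcl2fastq 2.17.1.14, per the submitters' processing notes. With 1 library per genotype there were no replicates to pool. The deposited score is derived from the −log10 q, the deposited fold is relative to that library's own background, and the deposited −log10 p and −log10 q are averages over each peak. Read counts and the treatment of duplicate reads were not given in the sources used here.

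Positions were converted to 1-based coordinates, and all peak ends lay within the NCBIM37 (mm9) chromosomes, from which sequences and GENCODE M1 genes were taken. Peaks overlapping by at least 1 bp were partners, and percentiles of fold were ranked within each list. Promoter peaks lay within 1 kb of any transcript start. Relative depth was solved from fold and Poisson p. Exact 40-base words were counted over the reference on both strands. Copies were searched with BLAST 2.17.0 (word size 15, at least 80% identity, at least 50% of the peak). Python 3.11.15, NumPy 2.4.6, pandas 2.3.3, SciPy 1.17.1 and Matplotlib 3.10.9 were used, and all 15 steps tested on simulated data gave the known answers.

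The window, its members, gene lists and alternatives were chosen with earlier results of these data known. Named items were all Sult1 and Ugt2 genes of the window, all strong peaks without a partner, the 5 highest peaks per list, the 3 pairs with the largest difference in each direction, the other promoter peaks, and Taf4a. Further peaks of the Sult1 and Ugt2 stretches, and the genes given with values from the lists of conjugation and regulator genes, were named after their values were seen. Exonic sequence of more than 30 bases was not printed.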

Additional observations from a re-analysis of the deposited data

How the results depend on the processing

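No paired analysis was possible because each genotype had 1 library, and a fit without 1 library was likewise not possible. Of 62 alternative values, 46 stayed within the limits used (1.5 times for counts, the interval for shares) and 16 moved beyond them. Counts and shares have no sign to change. A change of direction could be seen only in the median percentile difference of shared peaks, and there were 0. The q threshold moved most. At a −log10 q of at least 2 in both lists there were 10 control peaks and 1 family gene with a control promoter peak. At 5 or more there were 3 control peaks (2.13 kb) and 10 Taf4-inactivated peaks (4.79 kb), of which 80% had no partner, with promoter peaks at 0 family genes in control and 2 in Taf4-inactivated enteroids. When the other list was kept whole, 0% of control peaks at 5 or more had no partner, and 70% of Taf4-inactivated ones. From 50 kb before the first to 50 kb after the last gene there were 10 control peaks (3.43 kb). Strong Taf4-inactivated peaks without a partner numbered 2 in the top 5% by fold, 9 in the top 25% by fold and 1 in the top 10% by −log10 p, and strong control ones 1 in the top 25% by fold. These filters keep fewer or more peaks by construction, and no other cause was tested. Leaving out peaks with under 50% unique words, chosen after seeing the data, kept 13 control and 27 Taf4-inactivated peaks, of which 23.1% and 63.0% had no partner. A threshold on both lists also removes possible partners, and the shares over the whole lists were not computed under these filters. Since the window was chosen for strong peaks without a partner, nothing about the locus is read from the filtered shares. At an estimated 60.5% of the control depth, the Taf4-inactivated library could miss weak peaks. The part of depth in the control peaks without a partner was not tested.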

Other observations

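On the far side of the Sult1 genes, the casein genes, which encode milk proteins of the mammary gland, had no start site peak in either list. From position 88057942, midway between Sult1e1 and the first casein gene, to the end of the window there were 3 control and 5 Taf4-inactivated peaks, of which 1 and 3 had no partner. The unpartnered ones were C16 (88411582 to 88411942, percentile 57.7) in control, and T25 (88071521 to 88071997, percentile 39.9), T27 (88272120 to 88272412, percentile 45.0, in an exon of 4930432K09Rik) and T29 (88304426 to 88304645, percentile 68.1) in Taf4-inactivated enteroids. T29 lay 9409 bp from Odam, a gene of tooth-forming cells. In the reference T25 had 7379 copies and T29 had 319.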
